A study of Homo sapiens with 6 samples.

Results

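The genes described here encode proteins built around LIM domains and tied to the actin cytoskeleton or to transcription. They are CRIP1, CRIP2, CSRP1, CSRP2, LMO4, FHL1, FHL2, ZYX, PDLIM1 and PDLIM7. All 10 were found by symbol among 58735 gene identifiers, and 9 reached the level needed for testing, a mean of at least 1 FPKM over all libraries, together with 12517 genes in all. FPKM is the number of fragments per kilobase of gene length, scaled to library depth. Cells of HOK-16B, an immortalized human oral keratinocyte line, were pretreated with cannabidiol (CBD), a non-intoxicating cannabis compound, in 3 libraries, or with vehicle in 3 libraries, and all received an inflammatory stimulus. Neither the stimulus nor the dose and duration of CBD is named in the labels, cells without the stimulus were not analysed here, and 1 immortalized line stands for the tissue. Titles and cell line tags name HOK-16B throughout, while the free-text descriptions number the line differently in each sample, HOK-16B up to HOK-21B, so that n = 3 rests on the reading that all are HOK-16B. CRIP2 was selected on its higher FPKM values with CBD in these same 6 libraries, and the other genes were chosen by protein family with earlier results of these data known. Differences between the groups are therefore given as descriptions of the members and not as independent tests.

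A LIM domain is a pair of zinc-binding fingers that binds other proteins rather than DNA. Proteins with such domains collect at focal adhesions, stress fibres and cell junctions, where they sense tension in actin, and several shuttle to the nucleus and act as cofactors. In stratified epithelia, zyxin and its partners mark the sites where keratinocytes hold the matrix and one another, while LMO4 acts in the nucleus with the adaptor LDB1.

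CRIP1 and CRIP2 lie side by side on chromosome 14, and their coding sequences show the family's hallmark. A LIM module was sought in the coding sequence of each gene's principal GENCODE 29 transcript by the spacing of its 8 metal-binding codons. One module was found in CRIP1 (1 in its 231 coding bases) and 2 in CRIP2 (624 coding bases). The modules are printed because they show how alike the neighbours are within them. Capitals mark the 8 metal-binding codons, and each runs 5′ to 3′ on the coding strand.
CRIP1 module 1: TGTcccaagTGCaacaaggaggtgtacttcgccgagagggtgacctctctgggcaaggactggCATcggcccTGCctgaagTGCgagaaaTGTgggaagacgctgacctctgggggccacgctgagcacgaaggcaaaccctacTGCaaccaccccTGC
CRIP2 module 1: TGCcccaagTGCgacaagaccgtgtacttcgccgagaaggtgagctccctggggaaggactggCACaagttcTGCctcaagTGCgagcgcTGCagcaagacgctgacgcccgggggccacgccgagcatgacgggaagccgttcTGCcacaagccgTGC
CRIP2 module 2: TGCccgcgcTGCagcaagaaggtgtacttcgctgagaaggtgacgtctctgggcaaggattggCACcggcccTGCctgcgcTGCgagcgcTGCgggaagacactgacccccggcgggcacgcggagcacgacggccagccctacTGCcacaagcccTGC

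Each module spans 159 bases. The CRIP1 module was identical to the first CRIP2 module at 78.0% of bases and to the second at 80.5%, and the modules within CRIP2 matched each other at 78.0%. The longest run of identical bases between the CRIP1 and CRIP2 modules was 16. Over the whole proteins, counted against the longer one, 26.4% of residues were identical. GC content was 61.0% in the CRIP1 module, 64.8% in the first CRIP2 module and 68.6% in the second. Among the other members, the same search found 2 modules each in CSRP1, CSRP2 and LMO4, 4 each in FHL1 and FHL2, 3 each in ZYX and PDLIM7, and 1 in PDLIM1.

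Between 18213784 and 22158614 gene-assigned fragments lay behind the values of a library, and the detection floor of 3 fragments at a length of 1 kb ran from 0.126 to 0.153 FPKM by library, counting error only. Vehicle replicate 1 stood apart, with a first principal component score of 25.1, against -12.7 to -10.3 for CBD and -0.739 and 9.36 for the other vehicle libraries. Whether replicates came from separate cultures is not stated, so the p-values reflect the spread among these libraries alone, possibly technical spread. All 8 keratinocyte markers reached 1 FPKM, and their summed level was 11984 to 12560 FPKM with CBD and 9709 to 11505 FPKM with vehicle, without overlap. Among single markers KRT5, KRT14 and SFN were higher with CBD without overlap. KRT6A was lower without overlap (1289 FPKM with CBD, 1352 with vehicle), and the other 4 overlapped. Of all tested genes 40.7% did not overlap and 18.7% did so with CBD higher, so nothing is read from that count. The 4 markers with over 55% transcript GC content all lay above 0 in CBD minus vehicle, as did 2 of the 4 others. Among all tested genes 86.9% and 29.4% did. Their part in the members' values was not tested. In bulk RNA, fewer cells of a type and less RNA per cell cannot be told apart.

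CRIP2, a small cysteine-rich protein best known from heart and blood vessels, was the member that differed most. It stood at 13.0, 13.2 and 12.2 FPKM in CBD replicates 1 to 3, against 8.52, 8.84 and 7.86 FPKM in vehicle replicates 1 to 3. Every CBD library lay above every vehicle library, and the distance between the groups was far larger than the spread inside either. The means were 12.8 ± 0.524 FPKM with CBD and 8.41 ± 0.502 FPKM with vehicle (SD, n = 3 each), a ratio of 1.52. These values rest on 1218 to 1498 fragments per CBD library and 746 to 942 per vehicle library. The gene (ENSG00000182809) spans 105472962 to 105480170 on the plus strand of chromosome 14 in GENCODE 29 (GRCh38), and its exons overlap no other annotated gene.

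In log2(FPKM + 1), a scale that compresses differences of weakly expressed genes, CRIP2 was higher with CBD by 0.55 ± 0.06 (SE; 95% interval 0.41 to 0.69). In limma over all 12517 genes its Benjamini-Hochberg adjusted p was 0.0452, and its difference exceeded that of 98.6% of tested genes. It was the only one of the 9 tested members to pass 0.05, where 0.352% of all tested genes passed, and nothing is read from that count because the same contrast chose the gene. The call ended without CBD replicate 1, 2 or 3 or vehicle replicate 3 (limma adjusted p = 0.160, 0.198, 0.177 and 0.167). Those fits called 0, 0, 1 and 0 of all 12517 genes. The CRIP2 call remained without vehicle replicate 1 or 2 (limma adjusted p = 0.0494 and 0.0173), where 81 and 2351 genes were called. The CRIP2 difference itself stayed between 0.51 and 0.59 in those 6 fits.

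**Figure D1:**
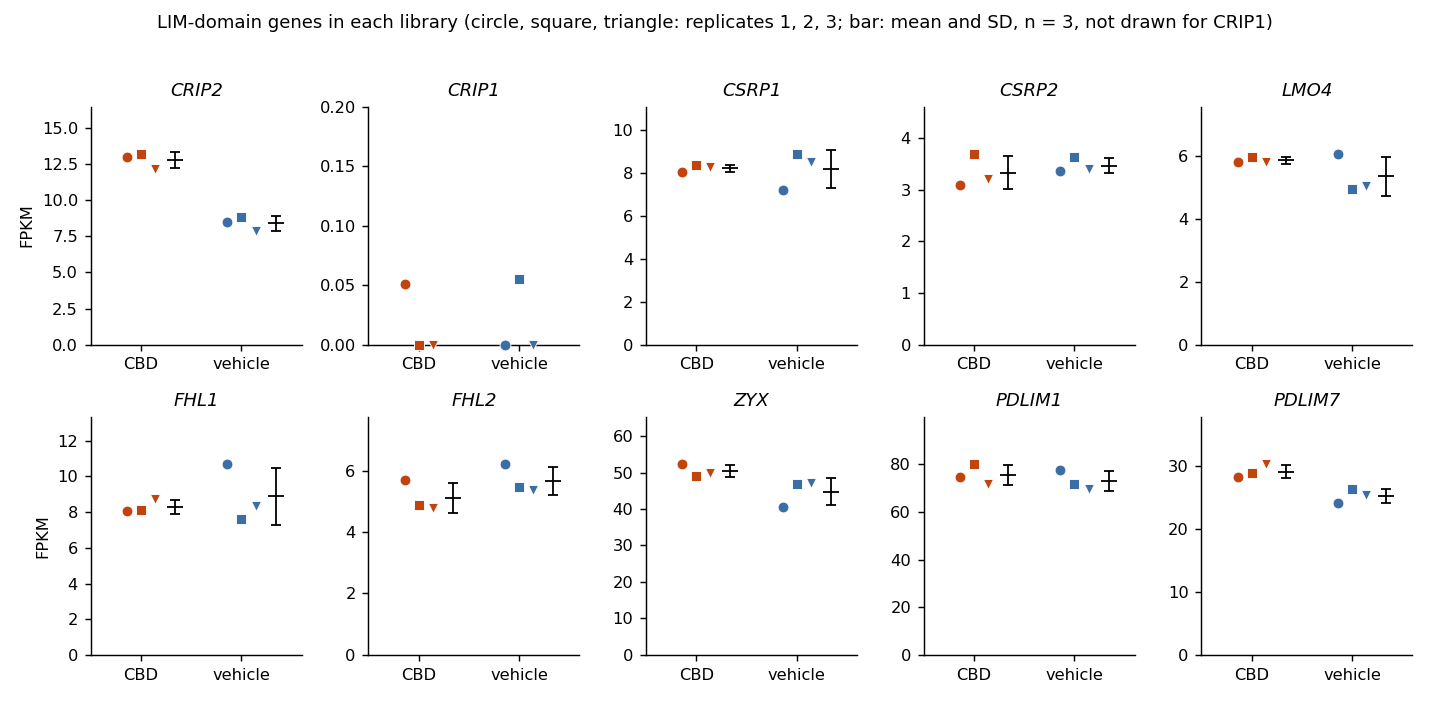
FPKM of each member (vertical axes, each from 0) in the 3 CBD and the 3 vehicle libraries (horizontal axes), with a symbol for each replicate and bars for mean and SD. CRIP2 is between 12.2 and 13.2 FPKM with CBD and between 7.86 and 8.84 with vehicle, ZYX and PDLIM7 also do not overlap, and CRIP1 lies near 0.

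GC content moved with the groups and touches CRIP2 directly. Averaged over fragments, transcript GC content was 51.2% to 51.3% in CBD libraries and 50.2% to 50.9% in vehicle libraries, without overlap. Its part in the CRIP2 difference cannot be told apart from that of the treatment. CRIP2 transcripts average 68.1% GC, in the GC-richest decile of tested genes, whose median difference was 0.24. With a smooth GC trend removed from each library, the CRIP2 difference was 0.21 ± 0.07 (SE; 95% interval 0.03 to 0.38), or 37.4% of the deposited one, and the limma adjusted p was 0.196.

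After that correction CRIP2 stood at log2 values of 3.63, 3.66 and 3.55 in CBD replicates 1 to 3, against 3.56, 3.29 and 3.36 in vehicle replicates 1 to 3. Vehicle replicate 1 then lay just above CBD replicate 3, so the groups overlapped by that library. Without vehicle replicate 1 the corrected difference was 0.28 ± 0.05 (SE; limma adjusted p = 0.0907), and with GC content taken from the longest transcript it was 0.26 ± 0.07 (limma adjusted p = 0.128).

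**Figure D2:**
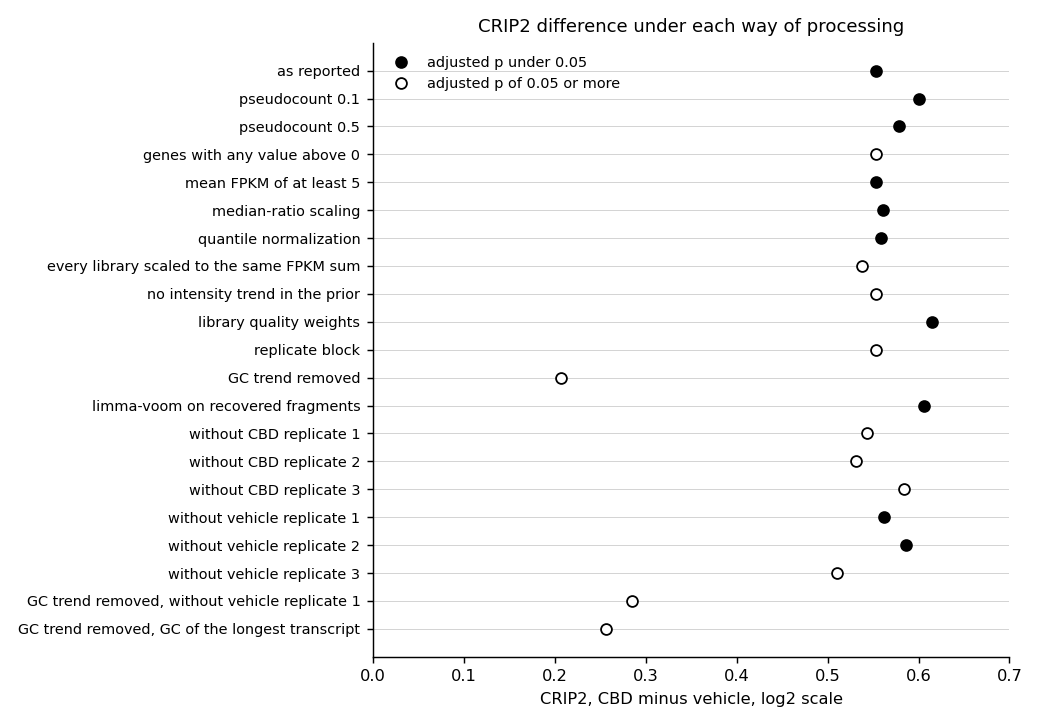
CRIP2 difference, CBD minus vehicle on the log2 scale (horizontal axis), under each way of processing (rows), with filled points where the limma adjusted p was under 0.05. Fits without a GC correction lie between 0.51 and 0.61, and those with one between 0.21 and 0.28.

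CRIP1, the cysteine-rich intestinal protein encoded 6146 bases downstream of CRIP2, was listed at or near 0. It had 0.0506, 0 and 0 FPKM in CBD replicates 1 to 3, against 0, 0.0550 and 0 FPKM in vehicle replicates 1 to 3, which is 3 fragments in 1 library of each group. Neither group exceeded the floor of 3 fragments, so no fold is given and a difference was not detectable at this depth. Of its 2485 exon bases 26.4% are shared, on the same strand, with AL928654.3, an overlapping gene listed at 0 in every library. In the principal CRIP1 transcript 32.7% of bases are shared. How fragments in shared exons were assigned is not given in the sources used here, and its part in the CRIP1 level was not tested. ILK, an adhesion kinase gene named after its values were seen, was listed at 0.201 to 0.529 FPKM. It shares 78.5% of its exon bases with opposite-strand genes, whereas the shared CRIP1 exons are on the same strand. The part of that overlap in the ILK level was not tested, and ILK says nothing about CRIP1. ARPC1B, an actin partner gene also named after its values were seen, shares 32.4% of its exon bases on the same strand. It was listed at 0.537 to 0.656 FPKM, and the part of its overlap in that level was not tested either.

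CSRP1 and CSRP2 encode cysteine-rich proteins that bind alpha-actinin and bundle actin filaments. CSRP1 stood at 8.05, 8.36 and 8.29 FPKM in CBD replicates 1 to 3, against 7.20, 8.89 and 8.51 FPKM in vehicle replicates 1 to 3. The CBD values sat inside the vehicle range, and the fitted difference was 0.01 (95% interval -0.17 to 0.19). CSRP2 had 3.09, 3.69 and 3.21 FPKM in CBD replicates 1 to 3, against 3.35, 3.62 and 3.40 FPKM in vehicle replicates 1 to 3. Here the vehicle values sat inside the CBD range, with a difference of -0.04 (95% interval -0.21 to 0.12). The longest identical stretch in their coding sequences was 14 bases.

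LMO4, the nuclear LIM-only adaptor, had 5.79, 5.96 and 5.78 FPKM in CBD replicates 1 to 3, against 6.05, 4.94 and 5.03 FPKM in vehicle replicates 1 to 3. The CBD libraries agreed closely, while vehicle replicate 1 lay above them and the other vehicle libraries below. The difference was 0.12 (95% interval -0.06 to 0.29) over all libraries and 0.19 without vehicle replicate 1 (limma adjusted p = 0.0702).

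FHL1 and FHL2 are LIM-only proteins first described in skeletal and heart muscle, and FHL2 also binds integrins and acts as a cofactor of transcription. FHL1 stood at 8.04, 8.12 and 8.76 FPKM in CBD replicates 1 to 3, against 10.7, 7.62 and 8.36 FPKM in vehicle replicates 1 to 3. Vehicle replicate 1 alone was high, and the difference was -0.08 (95% interval -0.34 to 0.19) with it and 0.05 without it. FHL2 had 5.68, 4.88 and 4.79 FPKM in CBD replicates 1 to 3, against 6.20, 5.45 and 5.36 FPKM in vehicle replicates 1 to 3. Its groups overlapped through CBD replicate 1, with a difference of -0.13 (95% interval -0.31 to 0.06).

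ZYX encodes zyxin, which recruits actin-assembly proteins such as VASP to adhesions and strained stress fibres. It stood at 52.2, 49.2 and 49.8 FPKM in CBD replicates 1 to 3, against 40.4, 46.8 and 47.0 FPKM in vehicle replicates 1 to 3. The groups did not overlap, but vehicle replicate 1 was well below the other vehicle libraries. The difference was 0.17 (95% interval 0.01 to 0.33) and 0.10 without vehicle replicate 1, and it was -0.09 with the GC trend removed. On the opposite strand EPHA1, at up to 7.20 FPKM, shares 2.35% of ZYX exon bases, and the strand setting is not given in the sources used here.

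PDLIM1 and PDLIM7 join a PDZ domain to LIM domains and anchor to alpha-actinin or tropomyosin. PDLIM1, the highest member in FPKM, stood at 74.6, 79.9 and 71.8 FPKM in CBD replicates 1 to 3, against 77.4, 71.5 and 69.5 FPKM in vehicle replicates 1 to 3. These ranges overlapped in part, with a difference of 0.05 (95% interval -0.10 to 0.20). PDLIM7 had 28.2, 28.8 and 30.2 FPKM in CBD replicates 1 to 3, against 24.1, 26.3 and 25.3 FPKM in vehicle replicates 1 to 3. Its groups did not overlap and the difference was 0.20 (95% interval 0.07 to 0.32), but with the GC trend removed it was -0.09.

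**Figure D3:**
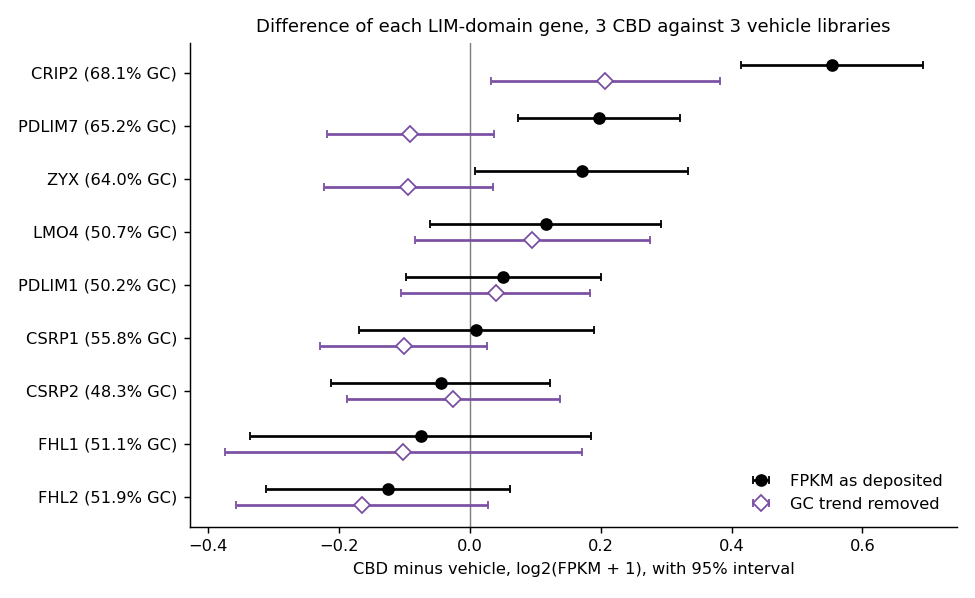
Difference of each tested member, CBD minus vehicle on the log2(FPKM + 1) scale with 95% intervals (horizontal axis), from FPKM as deposited (filled circles) and with the GC trend removed (open diamonds). CRIP2 is at 0.55 and 0.21, while ZYX and PDLIM7 move from above 0 to below 0.

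Across the 9 tested members the median difference was 0.05, against -0.01 for all tested genes, with 6 above 0 and 3 below, where 47.4% of all tested genes lay above 0. Groups did not overlap in 3 members, CRIP2, ZYX and PDLIM7, all higher with CBD, where 40.7% of all tested genes did not overlap and 18.7% did so with CBD higher. Nothing is read from these counts, since the same contrast guided the choice. Those same members are the GC-rich ones, at 68.1%, 64.0% and 65.2%, and the other 6 have 48.3% to 55.8%. With the GC trend removed the groups overlapped in all 9 members and their median difference was -0.09. The median over all genes in that fit was -0.03, and 40.0% lay above 0. The share of all genes whose groups overlapped in that fit was not computed. For members other than CRIP2 the limma adjusted p ran from 0.0778 (PDLIM7) to 0.942 (CSRP1) in the fit over all genes.

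The order of levels in FPKM was almost the same in both groups. FPKM here divides by all annotated exon bases of a gene, which exceed its principal transcript unequally. CSRP1 has 10318 exon bases against 1952 in that transcript, CRIP2 4837 against 1857 and ZYX 3482 against 2493. The order between genes therefore depends on the length used, and no order by transcript length was computed. PDLIM1 averaged 75.4 FPKM with CBD and 72.8 with vehicle, ZYX 50.4 and 44.8, and PDLIM7 29.1 and 25.2, each above the next without overlap. In CBD libraries CRIP2 came next at 12.8 FPKM, clear of FHL1 (8.31) and CSRP1 (8.23), which overlapped each other. In vehicle libraries FHL1 (8.88), CRIP2 (8.41) and CSRP1 (8.20) could not be ranked, since their ranges overlapped. LMO4 and FHL2 followed at 5.85 and 5.12 FPKM with CBD and overlapped with vehicle at 5.34 and 5.67. CSRP2, at 3.33 FPKM with CBD and 3.46 with vehicle, was the lowest member above the testing level.

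Spread between replicates was not alike in all members. The coefficient of variation was larger in vehicle than in CBD libraries for LMO4 (1.73% with CBD, 11.5% with vehicle), CSRP1 (1.97% and 10.8%), FHL1 (4.77% and 17.9%) and ZYX (3.20% and 8.37%). In these 4 genes vehicle replicate 1 was the extreme vehicle library. The order was the other way for CSRP2 (9.46% with CBD, 4.15% with vehicle) and FHL2 (9.55% and 8.13%), and the values were close for PDLIM1 (5.44% and 5.70%) and PDLIM7 (3.55% and 4.27%). CRIP2 varied by 4.09% among CBD and 5.97% among vehicle libraries, and there vehicle replicate 1 lay between the other vehicle values.

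The wider LIM family was followed in a list of 44 other LIM-domain genes of adhesion and cytoskeleton. Of the 28 tested, 0 were called higher and 0 lower by limma, where 0.352% of all tested genes were called. At that share a count of 0 in a list of this size says little. An unadjusted limma p under 0.05 was found in 14, against 31.4% of all tested genes. On the recovered fragments 7 passed in limma-voom, against 13.9% of all tested genes. Relatives of PDLIM7 lay on both sides of 0. PDLIM4, which regulates actin bundling, had 12.4 ± 0.738 FPKM with CBD and 9.33 ± 0.643 with vehicle (SD, n = 3 each; limma adjusted p = 0.0553). PDLIM5, a scaffold of alpha-actinin and kinases, had 9.53 ± 0.216 FPKM with CBD and 12.4 ± 0.885 with vehicle (limma adjusted p = 0.0553). MICAL2, an enzyme that oxidizes actin, had 1.47 ± 0.0608 and 2.09 ± 0.188 FPKM with CBD and vehicle (limma adjusted p = 0.0708). LIMA1, an actin-bundling protein of epithelia, had 30.6 ± 0.545 FPKM with CBD and 36.8 ± 3.08 with vehicle (limma adjusted p = 0.0763).

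In this list the side of 0 followed GC content. All 16 tested genes with over 55% GC lay above 0, as did 3 of the 12 at or below 55%, while among all tested genes 86.9% and 29.4% did. Across these 28 genes Spearman's rho between GC content and difference was 0.78, against 0.66 over all tested genes. These genes share the same 6 libraries, so rho is a description. Fits with the GC trend removed left 10 of the 28 above 0, where 40.0% of all genes lay above 0. The list median was -0.07 where the deposited values gave 0.08, and that of all genes was -0.03 with the trend removed. PDLIM4 (64.3% GC) was then at 0.11 and PDLIM5 (43.7% GC) at -0.26.

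**Figure D4:**
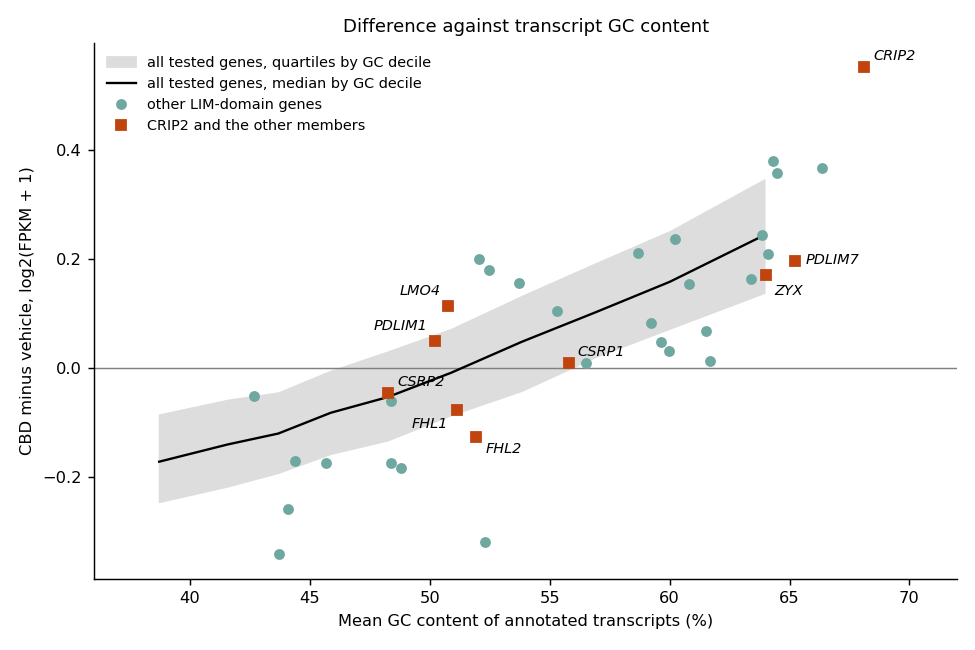
Difference, CBD minus vehicle on the log2(FPKM + 1) scale (vertical axis), against mean GC content of annotated transcripts in percent (horizontal axis), for members (squares), other LIM-domain genes (circles) and all tested genes by GC decile (line: median; band: quartiles). CRIP2, at 68.1% GC and 0.55, lies at the upper right; ZYX and PDLIM7 lie near the median of the GC-richest decile, 0.24.

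Partners of these proteins were followed in 3 further lists, and by limma 0 genes were called higher and 0 lower in each. Of all tested genes 0.352% were called, so a count of 0 in lists of this size says little. Of 39 actin and focal adhesion genes 36 were tested, with a median of -0.05, 14 above 0 and 22 below, 13 with an unadjusted p under 0.05 and 6 called by limma-voom, shares near the 31.4% and 13.9% of all tested genes. With the GC trend removed 6 lay above 0 and 30 below, with a median of -0.08. All genes had a median of -0.03 in that fit, and 40.0% lay above 0. TPM4, a tropomyosin, had 43.7 ± 1.99 FPKM with CBD and 51.9 ± 2.09 with vehicle (SD, n = 3 each; limma adjusted p = 0.0636). The gamma-actin gene ACTG1 had 748 ± 28.7 FPKM with CBD and 903 ± 60.6 with vehicle (limma adjusted p = 0.0719), and it was at -0.43 with the GC trend removed; it has close relatives among the actin genes, and how shared reads were counted is not given in the sources used here. Vinculin, encoded by VCL, had 18.1 ± 0.496 and 21.0 ± 1.02 FPKM with CBD and vehicle (limma adjusted p = 0.0731). FERMT2, a kindlin that activates integrins, had 3.12 ± 0.227 FPKM with CBD and 3.81 ± 0.0313 with vehicle (limma adjusted p = 0.0823). The deposited differences of TPM4, VCL and FERMT2 were -0.24, -0.21 and -0.22. With the GC trend removed they were -0.24, -0.19 and -0.11, and the groups then overlapped in FERMT2 only.

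Of 18 genes of the actin-responsive factor SRF, its MRTF cofactors and their targets, 14 were tested. Their median was 0.08 with 8 above 0, where all tested genes had a median of -0.01 and 47.4% above 0. With the GC trend removed 5 lay above 0 and 9 below, with a median of -0.04. In that fit all genes had a median of -0.03 and 40.0% lay above 0, so nothing is read from the turn. On the deposited values 4 had an unadjusted p under 0.05, about the 31.4% of all tested genes, and 1 passed in limma-voom, against 13.9% of all. CCN1, a matricellular protein gene, had 88.0 ± 4.29 FPKM with CBD and 69.7 ± 4.64 with vehicle (limma adjusted p = 0.0588). CALD1, the caldesmon gene, had 27.2 ± 0.729 FPKM with CBD and 30.0 ± 0.792 with vehicle (limma adjusted p = 0.108). TPM1 had 6.80 ± 0.0430 and 7.62 ± 0.329 FPKM with CBD and vehicle (0.109), and CCN2 3.41 ± 0.137 and 2.65 ± 0.447 (0.112), both limma adjusted p.

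Nuclear LIM regulators and the LDB and SSBP partners of LMO4 were mostly too low to test, as 6 of 20 reached the testing level. Of these 5 lay above 0, with a median of 0.27, 4 had an unadjusted p under 0.05 and 1 passed in limma-voom, where 31.4% and 13.9% of all tested genes did. With the GC trend removed the median was 0.08, with 5 above 0, where all genes had a median of -0.03 and 40.0% above 0. SSBP3, which stabilizes LDB complexes, had 8.54 ± 0.244 FPKM with CBD and 5.97 ± 1.41 with vehicle (limma adjusted p = 0.0919), and its relative SSBP4 10.7 ± 0.478 and 8.22 ± 2.19 (0.150). The SSBP3 difference was 0.47, and 0.39 with the GC trend removed, and that of SSBP4 was 0.37, and 0.04 with it removed. The homeobox gene ISL2 had 1.27 ± 0.0561 and 0.802 ± 0.249 FPKM with CBD and vehicle (limma adjusted p = 0.114), and LHX6 1.14 ± 0.132 and 1.52 ± 0.0744 (0.119). The ISL2 difference was 0.34, and 0.12 with the GC trend removed, where its groups overlapped. That of LHX6 was -0.24, and -0.38 with the trend removed, where its groups did not overlap.

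Because CRIP2, FHL1 and CSRP1 are abundant in vessels, muscle and fibroblasts, markers of those cells were read beside them. Of 8 fibroblast markers only COL1A1 reached 1 FPKM in any library, their sum was 9.31 to 9.41 FPKM with CBD and 7.40 to 8.14 with vehicle, and PDGFRA was at 0. Among 6 muscle markers SMTN alone reached 1 FPKM, the sum was 2.65 to 3.22 FPKM with CBD and 3.13 to 3.47 with vehicle, and ACTC1 was at 0. None of 5 endothelial markers did, with a sum of 0.0753 to 0.159 FPKM with CBD and 0.0642 to 0.141 with vehicle. No other fibroblast marker passed 0.466 FPKM, so COL1A1 carries that sum. Its transcripts average 60.8% GC, and its difference was 0.25, and 0.05 with the GC trend removed. Whether COL1A1 marks a separate cell population, or has a part in the CRIP2 difference, was not tested.

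The genes whose profile over the 6 libraries was most like that of CRIP2 were sought by the root mean square difference of log2(FPKM + 1) values centred per gene. In order they were NDRG1 (0.0322), TINCR (0.0330), JUND (0.0331), TENT5B (0.0457) and FZD2 (0.0494). The measure uses the same values that chose CRIP2, so it picks genes with a like step between the groups. Nothing is read from the likeness. With the GC trend removed their differences were, in the same order, 0.43, 0.33, 0.16, 0.32 and 0.22, and the groups overlapped in JUND. Their transcripts average 56.7%, 60.6%, 69.7%, 62.5% and 64.9% GC. NDRG1, a stress-induced gene, had 24.8 ± 0.336 FPKM with CBD and 16.5 ± 0.764 with vehicle (SD, n = 3 each). FZD2, a Wnt receptor gene, had 36.9 ± 0.851 FPKM with CBD and 25.7 ± 1.94 with vehicle. Among members the nearest was PDLIM7, which ranked 1331 of 12516, followed by ZYX at 2031, and FHL1 was the farthest at 8626.

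Promoter windows, from 250 bases before to 50 after each start in RefSeq (GRCh38.p14), were available for all 10 members, 31 windows in all. Their median GC content was 66.3%, against 58.7% over 35116 windows, and 1 CRIP2 window reached 86.0%. A CArG box, the element bound by SRF, was matched in 4 windows, 3 of FHL2 and 1 of FHL1, or 12.9% against 1.29% of all windows. FHL1 holds 12 of the 31 windows and FHL2 4, and some FHL2 windows overlap and share bases. The windows are therefore not independent, no share by gene was computed, and no enrichment is read from the match. The AP-1 motif TGANTCA was matched in 2 windows, both of FHL1, or 6.45% against 7.71%. On either strand GGGCGG, the GC box, was matched in 13 windows, or 41.9% against 45.0%. Such matches describe letters only.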

How the data were processed

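Total RNA of 6 libraries, 3 CBD and 3 vehicle, underwent paired-end sequencing, as the labels' protocols state; groups and replicate numbers come from the sample titles. The authors deposited 1 table of FPKM values, 1 column per library, per the file headers. HISAT2 2.0.5 and featureCounts 1.5.0-p3 are named in the submitters' processing notes; the build, annotation, strand setting and filters they used are not given in the sources used here. Each value is relative to the library total, so a large shift in abundant genes moves all others, and no GC correction is recorded.

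All 58735 identifiers matched GENCODE 29 (GRCh38), which supplied symbols, coordinates and exon-union lengths. FPKM times length gave whole fragments for 100% of values above 0 (tolerance 0.01 fragments). Same-group libraries differed by more than sampling noise (chi-square per gene 2.95 to 16.5), so no pair looked like 1 library deposited more than once; separate preparations of 1 culture would also exceed that noise. limma 3.58.1 in R 4.3.3 was fitted to log2(FPKM + 1), a pseudocount of 1, for 12517 genes whose mean FPKM reached 1, with group as the only term, an intensity trend in the prior, two-sided tests and Benjamini-Hochberg adjustment over all of them at 0.05. GC content was the mean over annotated transcripts, known for 12510 tested genes, and its trend was removed per library by loess (span 0.3). The fit was tested on simulated data with known changes. It recovered 75% of 100 genes changed 1.5-fold and 95% of 100 changed 2-fold, and called 8 unchanged genes. The simulated libraries had equal spread, no GC shift between groups and no outlying library, so the test cannot speak to those features of these data.

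Members and lists were chosen with earlier results of these data known, and the leukocyte marker list is not reported here. Genes named were the members and up to 4 tested genes per list with the smallest adjusted p. The 5 profiles nearest to CRIP2 and the leading markers were also named. ILK and ARPC1B were named after their values were seen. Alternatives covered pseudocount, filter, scaling, prior, weights, replicate block, GC content, recovered fragments and leaving out each library. The GC correction without vehicle replicate 1 and that with GC content of the longest transcript were chosen after seeing the data. Python 3.11.15 (numpy 2.4.6, pandas 2.3.3) made the tables and matplotlib 3.10.9 the plots.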

Additional observations from a re-analysis of the deposited data

How the results depend on the processing

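CRIP2 stayed above 0 in all 20 alternatives, from 0.21 to 0.61, and passed 0.05 in 9 of them. Beside the reported 0.55, it did not pass with every gene above 0 tested (0.55; limma adjusted p = 0.122), with every library scaled to the same sum (0.54; 0.0528), without the intensity trend (0.55; 0.0649), with the replicate block (0.55; 0.0808), with the GC trend removed (0.21; 0.196), with it removed without vehicle replicate 1 (0.28; 0.0907) or with GC content of the longest transcript (0.26; 0.128). Leaving out 1 library gave 0.51 to 0.59. FHL2 and LMO4 kept their sign in every alternative run.

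Signs turned as follows. With the GC trend removed ZYX was at -0.094, PDLIM7 at -0.092 and CSRP1 at -0.10; without vehicle replicate 1 in addition they were at -0.11, -0.061 and -0.15, and FHL1 at 0.032; with GC content of the longest transcript they were at -0.10, -0.064 and -0.0146, CSRP2 at 0.072 and PDLIM1 at -0.0145. PDLIM1 was at -0.014 after quantile normalization, and CSRP1 at -0.0050 with equal sums and -0.039 with library weights. Leaving out 1 library moved CSRP1 between -0.071 and 0.064 and FHL1 between -0.17 and 0.050. PDLIM7 passed with library weights (0.19; limma adjusted p = 0.0127), limma-voom (0.20; 0.0436) and without vehicle replicate 2 (0.23; 0.0393), and LMO4 with library weights (0.17; 0.0245).

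Counts over all genes moved widely from 32 higher and 12 lower. They were 0 and 0 with every gene above 0 tested by limma (4670 at an unadjusted p under 0.05), 427 and 305 at a mean FPKM of at least 5, 54 and 19 after quantile normalization, 2 and 2 with equal sums, 0 and 1 without the intensity trend, 2112 and 2140 with library weights, and 0 and 0 with the replicate block (3676 at an unadjusted p under 0.05). Further counts were 3 and 9 with the GC trend removed, 0 and 0 by limma with it removed without vehicle replicate 1 (2438 at an unadjusted p under 0.05), 4 and 5 with the GC trend removed by GC content of the longest transcript, and 909 and 837 with limma-voom; leaving out 1 library gave 0 to 1267 higher and 0 to 1084 lower. For the 4 lists of other LIM, partner and SRF genes, 0 and 0 as reported, they were 2 and 2 at a mean FPKM of at least 5, 0 and 1 after quantile normalization, 18 and 22 with library weights, 5 and 10 with limma-voom, and 0 to 12 and 0 to 9 leaving out 1 library. The causes were not tested, beyond that fewer or more genes or libraries entered the filter and leave-one-out fits.

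Replicate numbers are shared between the groups, but the deviations of same-numbered libraries correlated at only -0.0027, 0.0523 and 0.0235, and not every library correlated best with its own number, so the replicate block joins libraries that share a number and no known source.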

Other observations

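The other protein-coding neighbours of CRIP2 on chromosome 14 were read for comparison. MTA1, a chromatin remodelling subunit gene 2232 bases upstream of CRIP2, stood at 16.6, 15.6 and 16.2 FPKM in CBD replicates 1 to 3, against 13.8, 15.7 and 15.5 FPKM in vehicle replicates 1 to 3, and its groups overlapped. Its difference was 0.10 (limma adjusted p = 0.301), with 62.1% transcript GC, and -0.13 with the GC trend removed, where its groups did not overlap. TEDC1, a tubulin-associated gene that lies beyond CRIP1, had 6.58, 5.88 and 5.69 FPKM in CBD replicates 1 to 3, against 3.74, 5.52 and 4.63 FPKM in vehicle replicates 1 to 3. Here the groups did not overlap, and vehicle replicate 1 was the lowest library. The TEDC1 difference was 0.33 (limma adjusted p = 0.116), and -0.01 with the GC trend removed; its transcripts average 68.1% GC.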
